A study of Mus musculus with 14 samples.

Results

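The genes described here are 9 genes of natural killer (NK) cells, the killer lectin-like and other receptors and the chemokine gene Xcl1: Klrk1, Klrd1, Klrc1, Klrc2, Klre1, Klrb1c, Klrg1, Ncr1 and Xcl1. They were chosen by symbol from the deposited table, which lists 18481 genes, and all 9 were found in it. In SMM102 melanomas all 9 were higher after 3 days of PLX4032 than in control tumours. In that test 24.9% of all genes passed as higher. The ratio of group means was 6.71 to 11.1 for the 9 and 8.02 for the pan-leukocyte gene Ptprc. None of the 9 passed the test against the controls at day 18 or day 27, where 7.92% and 6.67% of all genes tested did.

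The study grew SMM102 melanoma cells subcutaneously in C57BL/6J females aged 6 to 8 weeks, with a pair of injection sites per animal, and started dosing at tumour volumes of 150 to 300 mm3. PLX4032 (vemurafenib), an inhibitor of the mutant BRAF kinase, was given into the peritoneum at 50 mg/kg on 5 days a week, and treated tumours were collected at day 3 (2 tumours), day 6 (2), day 18 (2) and day 27 (4). Controls were collected at day 3 (2 tumours) and day 6 (2), and none is labelled for days 18 or 27. The design text calls the controls vehicle-treated and the sample labels call them untreated. SMM102 is a single transplanted line in mice that keep their own immune system, and the 4 tumours of day 27 came from the left and right sides of 2 mice. No column of the table names an animal, so these 4 entered as separate samples and p-values that involve day 27 are too small. That also touches the other comparisons, since all groups shared 1 estimate of the spread. For day 18 the labels do not say that the tumours came from separate mice, so part of that spread may lie within an animal. A number in the titles recurs between a control of day 6 and a treated tumour of day 3. The labels do not say whether it is the same animal.

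NK cells are lymphocytes that kill stressed or transformed cells without a rearranged antigen receptor. They read a balance between activating receptors, which pass signals through small adaptor proteins such as those encoded by Tyrobp and Hcst, and inhibitory receptors, which mostly recognise MHC class I molecules. The killer lectin-like receptors are type II membrane proteins with a C-type lectin-like domain, many of them encoded side by side in the NK gene complex. Several are also carried by activated CD8 T cells, so none of these transcripts alone identifies an NK cell in bulk tumour RNA.

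Values are the signal deposited per gene for each of the 14 bulk libraries, on a scale close to TPM (transcript abundance corrected for length), so that levels of different genes are compared per unit of transcript length. The columns sum to between 879385 and 1084401, and the depth per tumour is unknown. In bulk RNA, fewer cells of a type and less RNA per cell cannot be told apart. Markers of many leukocyte types moved with the treatment. The summed signal of 8 macrophage and monocyte markers was 585 to 1606 in controls and 6560 to 11500 at day 3, and that of 15 T cell markers was 114 to 155 in controls, 380 to 688 at day 3 and 207 to 728 at day 6. Markers of tissue around the tumour also differed at day 3, where the sums of the 4 lists given next lay above the controls. The summed signal of 4 fibroblast markers was 735 to 978 in controls and 1379 to 1804 at day 3, and that of 4 endothelial markers was 29.4 to 65.2 and 90.9 to 137. For 4 adipocyte markers it was 14.2 to 53.3 in controls, 68.9 to 106 at day 3 and 2319 to 2450 at day 18. For 4 skeletal muscle markers it was 12.8 to 145 in controls, 359 to 450 at day 3 and 17.3 to 1065 between the tumours of day 18. Their part in the results below was not tested. Of 8 melanoma markers 4 were listed (Mitf, Pmel, Sox10 and S100b), with a summed signal of 3.57 to 5.53 in controls and 8.30 to 12.7 at day 3, and the pigment genes Mlana, Dct, Tyr and Tyrp1 were not analysed here. Mitf rose by 1.04 (adjusted p = 0.00934) and Pmel by 0.35 (adjusted p = 0.0358) at day 3. Ncr1 and Klrb1c, commonly used as NK markers, had signal in every tumour, down to 0.951 for Ncr1 at day 27 and 0.705 for Klrb1c in a control. Signal this low does not by itself show NK cells in a tumour.

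On GRCm38, the assembly also called mm10, 7 of the 9 genes lie on chromosome 6, and 6 of those fall within 900 kb of the NK gene complex. In order they are Klrb1c (chr6:128778485-128789215, minus strand), Klre1 (chr6:129577905-129585827, plus), Klrd1 (chr6:129591782-129598775, plus), Klrk1 (chr6:129610323-129623864, minus), Klrc2 (chr6:129647496-129660689, minus) and Klrc1 (chr6:129666015-129678973, minus). Klrg1 lies 6496 kb before this cluster (chr6:122270596-122282882, minus). Ncr1 is on chromosome 7 (chr7:4337724-4345164, plus) and Xcl1 on chromosome 1 (chr1:164931644-164935527, minus). Some of these genes share sequence that can split reads between them. Of the distinct 31-base words in the annotated transcripts of Klrc1, 49.6% also occur in those of Klrc2, and 16.8% of those of Klrc2 occur in Klrc1, so the division of signal between these neighbours is uncertain. Klrb1c shares 21.2% with other genes, most of all (13.1%) with the overlapping gene model Gm44511 on the same strand. Xcl1 shares 14.2% with Gm20743, which overlaps it on the opposite strand. The sources used here do not state whether counting was strand-aware. For Klrd1, Klrg1 and Ncr1 no such word was shared.

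RefSeq promoter sequences on GRCm38.p6 were available for 7 of the 9 genes, all but Klrd1 and Klrg1. The 250 bases before the annotated start are printed for 4 genes that moved together at day 3: Klrk1 (chr6:129623865-129624114, minus strand), Klrc1 (chr6:129678974-129679223, minus), its neighbour Klrc2 (chr6:129660597-129660846, minus) and, from another chromosome, Ncr1 (chr7:4337465-4337714, plus). Capitals mark the letters TGTGGT or their reverse complement ACCACA, the core recognised by RUNX transcription factors, which take part in NK and CD8 T cell differentiation.
Klrk1: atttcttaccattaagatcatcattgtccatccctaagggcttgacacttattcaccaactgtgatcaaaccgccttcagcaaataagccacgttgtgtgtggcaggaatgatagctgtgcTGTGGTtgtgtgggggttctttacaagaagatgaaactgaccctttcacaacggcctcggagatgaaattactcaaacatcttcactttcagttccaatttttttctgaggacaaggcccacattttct
Klrc1: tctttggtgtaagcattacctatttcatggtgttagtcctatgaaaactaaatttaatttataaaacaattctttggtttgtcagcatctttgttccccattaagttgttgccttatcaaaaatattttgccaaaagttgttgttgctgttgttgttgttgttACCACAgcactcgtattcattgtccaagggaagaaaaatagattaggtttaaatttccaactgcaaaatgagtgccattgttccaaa
Klrc2: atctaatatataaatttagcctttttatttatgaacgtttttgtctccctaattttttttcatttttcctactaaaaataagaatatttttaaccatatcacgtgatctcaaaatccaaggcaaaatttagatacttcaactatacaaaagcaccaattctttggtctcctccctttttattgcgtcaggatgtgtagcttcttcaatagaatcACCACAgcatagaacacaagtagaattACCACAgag
Ncr1: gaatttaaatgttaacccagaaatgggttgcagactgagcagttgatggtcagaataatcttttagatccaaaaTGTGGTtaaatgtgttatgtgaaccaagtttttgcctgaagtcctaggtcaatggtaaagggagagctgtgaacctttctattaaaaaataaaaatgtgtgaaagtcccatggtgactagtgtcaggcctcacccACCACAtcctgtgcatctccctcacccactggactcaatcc
These letters occurred in all 7 of the promoters available and in 14.2% of 27025 mouse promoters of the same length, searched on both strands. They began 129 bases before the start in Klrk1, 87 in Klrc1, 36 and 9 in Klrc2, and 176 and 41 in Ncr1. GTGTGA (or TCACAC), a core of T-box factors, was present in 2 of the 7 against 12.2% of all promoters, and GGAAGT (or ACTTCC), a core of ETS factors, in 2 of the 7 against 20.0%. The motifs were picked after these sequences had been seen, and a match of 6 letters is a description of the window, not a site.

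Klrk1 encodes NKG2D, an activating receptor for stress-induced ligands of the RAE-1, MULT1 and H60 families that signals through the Hcst and Tyrobp adaptors. Its signal was 7.93 and 5.07 in the controls of day 3 and 7.44 and 2.92 in those of day 6. It was 46.3 and 69.7 in the treated tumours of day 3 and 20.8 and 87.1 in those of day 6. Every early treated tumour thus lay above every control, and the tumours of day 6 were far apart. At day 3 the difference from the 4 controls was 3.15 (SE 0.53) on the log2(signal + 1) scale, on which all differences are given, with a Benjamini-Hochberg adjusted p of 0.000968 in limma. At day 6 it was 2.75 (SE 0.53, adjusted p = 0.0337). The tumours of day 18, at 22.4 and 8.50, were still above all controls, but the difference of 1.20 (SE 0.53) did not pass (adjusted p = 0.169). At day 27 the signal was 3.92, 4.23, 5.24 and 5.64, within the range of the controls.

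Of the NKG2D ligands 3 were tested, Raet1d, Raet1e and Ulbp1, and none passed at any day. Raet1e, which encodes a RAE-1 protein, had a signal of 0.273 to 1.45 in controls and of 1.31 and 1.88 at day 3 (difference 0.51, SE 0.22, adjusted p = 0.0788). Ulbp1, which encodes MULT1, had a mean of 3.41 in controls and 5.38 at day 3 (difference 0.56, SE 0.23, adjusted p = 0.0685). H60b was not analysed here.

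Klrd1 encodes CD94, the shared chain that pairs with the NKG2A product of Klrc1 to form an inhibitory receptor and with the NKG2C product of Klrc2 to form an activating one. Both recognise the non-classical MHC molecule Qa-1, encoded by H2-T23. Klrd1 was 10.4 and 7.83 in the controls of day 3, 15 and 6.40 in those of day 6, 55.3 and 97.4 at day 3 of treatment and 27.4 and 77.4 at day 6. No early treated tumour overlapped the controls, and the difference was 2.83 (SE 0.43, adjusted p = 0.000629) at day 3 and 2.18 (SE 0.43, adjusted p = 0.0337) at day 6. At day 18 the signal was 20.7 and 10.5, and at day 27 it was 5.55, 6.53, 5.89 and 7.78, so that 2 tumours of day 27 were below every control. Neither late difference passed.

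Klrc1, the inhibitory partner, was 4.57 and 3.36 in the controls of day 3, 2.84 and 2.46 in those of day 6, 17.0 and 29.2 at day 3 of treatment and 7.08 and 36.0 at day 6. The highest single value of Klrc1 was therefore in a day 6 tumour. It rose by 2.46 (SE 0.50, adjusted p = 0.00257) at day 3 and by 2.03 (SE 0.50, adjusted p = 0.0426) at day 6. Later it was 4.35 and 1.69 at day 18 and 1.28, 1.67, 2.35 and 1.38 at day 27. All 4 tumours of day 27 lay below the lowest control, but the difference of -0.68 (SE 0.41) did not pass (adjusted p = 0.376).

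Klrc2, the activating partner, had the lowest mean of the 9 genes in the controls and on every treatment day except day 6. It was 1.09 and 0.67 in the controls of day 3, 0.99 and 0.52 in those of day 6, 4.16 and 6.80 at day 3 of treatment and 1.97 and 6.34 at day 6. It was the one gene of the 9 that met the filter on low values only through treated tumours. Its rise was 1.82 (SE 0.33, adjusted p = 0.00145) at day 3 and 1.37 (SE 0.33, adjusted p = 0.04) at day 6. It fell back to 1.504 and 0.69 at day 18 and to 0.29, 0.43, 0.68 and 0.64 at day 27. Klrc1 exceeded Klrc2 in 14 of 14 tumours, a comparison that carries the shared sequence named above.

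H2-T23, the gene for the Qa-1 ligand, rose on the early days as well. It was 108, 57.7, 105 and 57.7 in the controls, 586 and 641 at day 3 and 210 and 594 at day 6. The rise was 2.95 (SE 0.46, adjusted p = 0.000656) at day 3 and 2.16 (SE 0.46, adjusted p = 0.0337) at day 6. The day 6 call was lost against the controls of the same day (adjusted p = 0.0678), with the compared groups fitted alone (0.273), and without the second tumour of day 6 (0.493), of the day 3 controls (0.101) or of the day 6 controls (0.0837). At day 27 it was 67.4 to 109, inside or close to the range of the controls.

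Klre1 encodes a chain that forms heterodimers with the Klri1 or Klri2 product, giving an inhibitory or an activating receptor. It was 2.37 and 1.82 in the controls of day 3, 1.92 and 1.38 in those of day 6, 13.95 and 27.7 at day 3 of treatment and 4.94 and 21.3 at day 6. The ratio of the day 3 mean to the control mean, 11.1, was the highest of the 9 genes, and the difference was 2.86 (SE 0.47, adjusted p = 0.000894). At day 6 the difference was 2.01 (SE 0.47, adjusted p = 0.0378). Its partners rose at day 3 as well, Klri1 by 2.05 (SE 0.30, adjusted p = 0.0005) and Klri2 by 1.74 (SE 0.28, adjusted p = 0.00086). Both partners met the filter on low values only with treated tumours. At day 27 Klre1 was 1.42, 2.53, 1.44 and 2.27, and its mean differed from that of the controls by 0.01 (SE 0.39, adjusted p = 0.99).

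Klrb1c encodes NK1.1, the receptor by which NK cells of C57BL/6 mice are usually recognised, and Clec2d encodes a ligand of a related inhibitory receptor. Klrb1c was 1.49, 1.27, 2.87 and 0.705 in the 4 controls, 11.3 and 21.6 at day 3 and 5.20 and 11.1 at day 6. The tumours of both early days lay above every control, with differences of 2.76 (SE 0.41, adjusted p = 0.000581) and 1.81 (SE 0.41, adjusted p = 0.0367). Day 18 gave 4.94 and 1.90 and day 27 gave 0.796, 1.24, 1.38 and 1.84, overlapping the controls. Clec2d rose by 1.42 at day 3 (SE 0.24, adjusted p = 0.000942), from 40.5 to 65.2 in controls to 133 and 151.

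Klrg1 encodes an inhibitory receptor for cadherins that marks mature NK cells and terminally differentiated effector T cells. It was 1.87, 1.02, 2.28 and 0.964 in the controls and 6.43 and 21.4 at day 3, a rise of 2.38 (SE 0.40, adjusted p = 0.000943) that was 1.59 without the higher tumour. At day 6 it was 2.33 and 4.02, with the lower tumour just above the highest control, and the difference of 0.73 (SE 0.40) did not pass (adjusted p = 0.323). At day 27 it was 0.545, 0.656, 0.802 and 0.112, all below the lowest control, but the difference of -0.72 (SE 0.33) did not pass (adjusted p = 0.234). Of its possible ligands, Cdh2, the gene for N-cadherin, fell by 0.96 at day 3 (SE 0.22, adjusted p = 0.00453), from a mean of 33.7 to 17.4, and Cdh1, the gene for E-cadherin, had means of 1.77 and 3.25 (difference 0.71, SE 0.42, adjusted p = 0.195).

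Ncr1 encodes NKp46, an activating receptor that is close to restricted to NK cells and some innate lymphoid cells. It was 1.41, 1.46, 3.37 and 1.29 in the controls, 13.8 and 21.8 at day 3 and 3.21 and 13.1 at day 6. All day 3 tumours were above the controls (difference 2.73, SE 0.45, adjusted p = 0.000862), while the lower tumour of day 6 fell below the highest control and the difference of 1.47 (SE 0.45) did not pass (adjusted p = 0.076). Late tumours gave 4.24 and 2.25 at day 18 and 1.88, 0.951, 2.14 and 2.26 at day 27.

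Xcl1 encodes the chemokine that NK cells and CD8 T cells use to attract cross-presenting dendritic cells, which carry its receptor Xcr1. It was 6.92, 2.85, 11.9 and 4.43 in the controls, 50.1 and 59.9 at day 3 and 14.6 and 44.3 at day 6, with no overlap on either day. The difference was 3.04 (SE 0.44, adjusted p = 0.000504) at day 3 and 1.96 (SE 0.44, adjusted p = 0.0364) at day 6. At day 18 it was 15.9 and 10.2, and at day 27 the 4 tumours were close together at 8.14, 8.08, 8.54 and 9.10. Xcr1 rose at day 3 by 0.95 (SE 0.19, adjusted p = 0.00209), from 0.112 to 0.235 in controls to 1.54 and 1.07. It had values of 0.518 and 1.39 at day 6 (adjusted p = 0.0551). Xcr1 was under 1 in every control and met the filter on low values only through treated tumours.

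**Figure D1:**
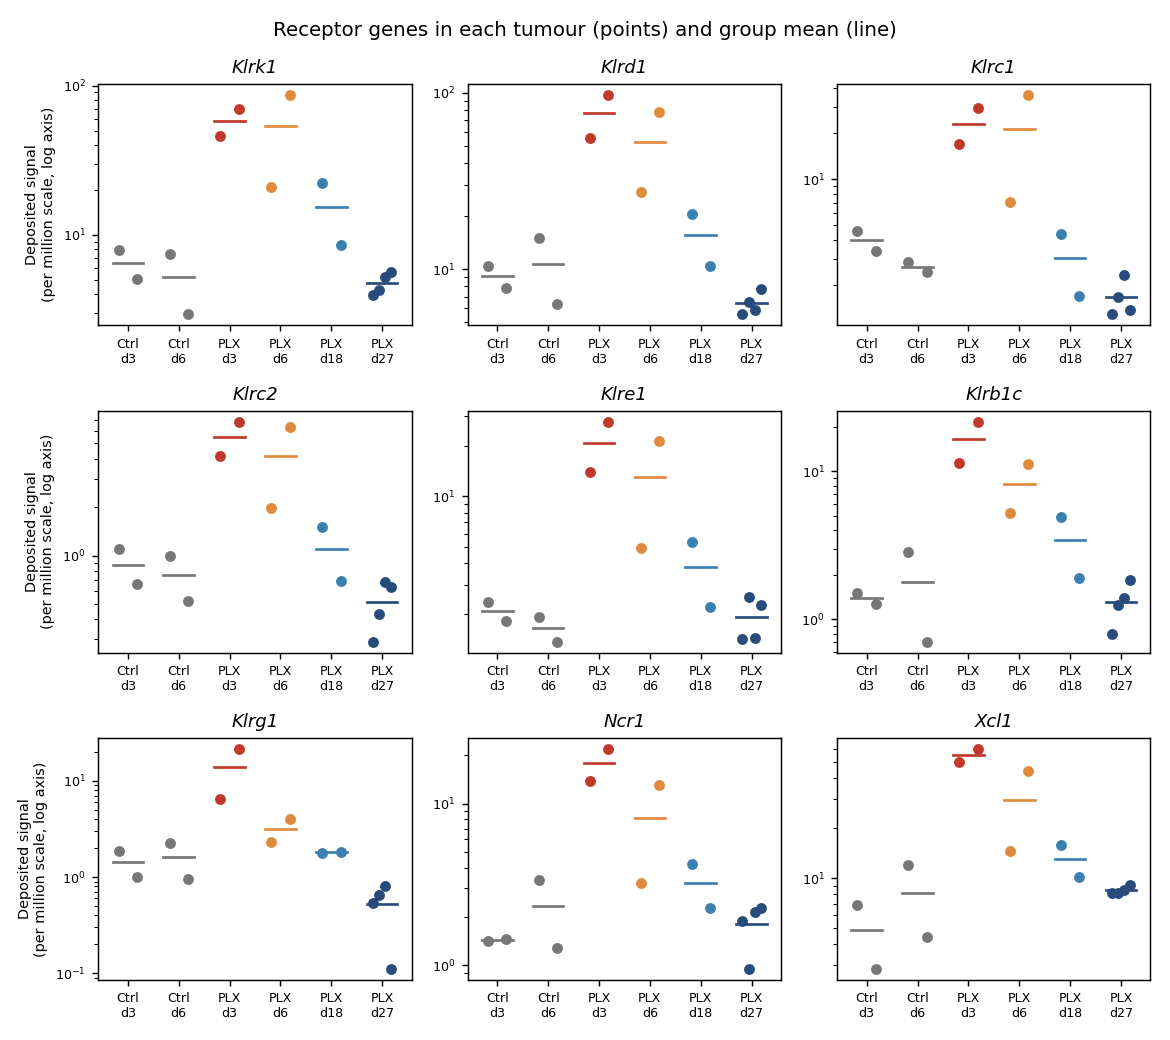
Deposited signal of each of the 9 genes (log axis) in each tumour, with control and PLX4032 groups by day on the x axis. Points are tumours and lines are group means. Both tumours of day 3 lie above all 4 controls in each panel, and the tumours of day 27 overlap the controls for 7 genes and lie below all of them for Klrc1 and Klrg1. The share of all genes with such splits was not computed.

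At day 3, 9 of 9 genes rose, in a comparison in which 45.8% of the 15841 genes tested passed the threshold and 24.9% passed with higher values. The median difference of the 9 was 2.76, against 0.02 for all genes tested. At day 6, 7 of 9 rose, where 5.92% of all genes passed and 4.49% were higher, and the median difference was 1.96 against 0.01. In that comparison 8 of the 9, and 3584 of all genes tested, had an unadjusted limma p under 0.05. The calls of day 6 rest on few tumours: none of the 9 passed without control tumour 2 of day 3, control tumour 2 of day 6 or treated tumour 2, and 8 passed without treated tumour 1 or without control tumour 1 of day 6. In those fits without 1 tumour 7 or 8 of the 9 had an unadjusted limma p under 0.05.

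At day 18 none of the 9 passed in limma, where 7.92% of all genes did. An unadjusted limma p under 0.05 was reached by 2 of the 9 and by 4488 of the 15841 genes tested. The differences of the 9 ran from -0.16 for Klrc1 to 1.20 for Klrk1, with a median of 0.60 against 0.07 for all genes tested. At day 27 none of the 9 passed, where 6.67% of all genes did. None of them had an unadjusted limma p under 0.05, against 3422 of all genes tested. The differences there ran from -0.72 for Klrg1 to 0.48 for Xcl1, with a median of -0.19 against 0.01. Between the control groups of day 6 and day 3 none of the 9 passed, nor did any other gene (0.0%, with 886 genes at an unadjusted p under 0.05), and the 9 differed by -0.44 to 0.60.

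The fall from the early to the late treated tumours was tested directly, as the mean of days 18 and 27 against the mean of days 3 and 6. All 9 genes fell, where 40.0% of all genes passed and 19.4% were lower. Klrc1 had the most negative difference, -2.67 (SE 0.38, adjusted p = 0.000668), and Klrc2 the least negative, -1.63 (SE 0.25, adjusted p = 0.000987). Klrd1 fell by 2.46 (SE 0.33) and Klrk1 by 2.45 (SE 0.41). Late and early tumours overlapped in Klre1, Klrk1, Ncr1 and Xcl1, in which the first tumour of day 18 was above the first tumour of day 6. This comparison and those with the controls share treated tumours and are not independent of each other. With controls of days 3 and 6 only, treatment and time cannot be told apart in it.

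**Figure D2:**
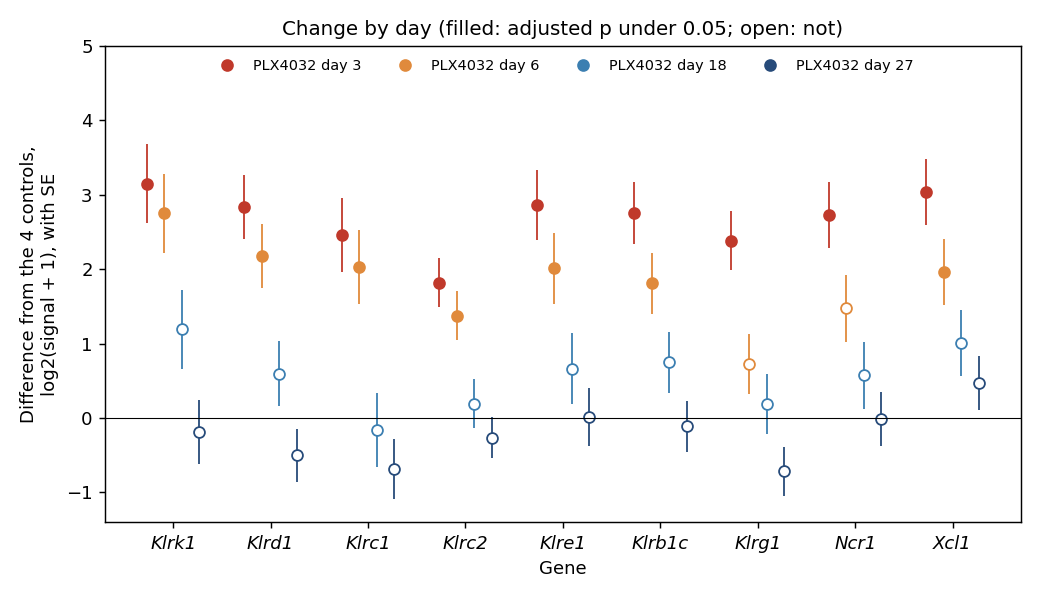
Difference of each treated group from the 4 controls on the log2(signal + 1) scale, per gene, with the standard error from the limma fit as bars. Filled points passed an adjusted p of 0.05 and open points did not: all 9 are filled at day 3, 7 at day 6 and none at days 18 and 27.

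Klrd1, Klrk1 and Xcl1 had the 3 highest means in the controls and on each treatment day. Klrd1 led in the controls (mean 9.91) and at days 3 and 18, Klrk1 led at day 6 (53.9, against 52.4 for Klrd1, which is less than the spread between the tumours of that day), and Xcl1 led at day 27 (8.47 ± 0.47, SD, n = 4). Klrd1 and Klrk1 each exceeded Klrb1c, Klrc1, Klrc2, Klre1, Klrg1 and Ncr1 in 14 of 14 tumours. The means of Ncr1, Klre1, Klrb1c and Klrg1 in the controls, 1.88, 1.87, 1.58 and 1.53, were closer together than the spread between control tumours.

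The pan-leukocyte gene Ptprc, which encodes CD45, moved with the 9 genes. It was 29.2, 15.7, 24.8 and 6.01 in the controls, 121 and 183 at day 3, 57.3 and 140 at day 6, 53.6 and 29.6 at day 18 and 14.1, 14.5, 16.4 and 34.1 at day 27. Its rise was 3.10 (SE 0.56, adjusted p = 0.0014) at day 3 and 2.38 at day 6. Expressed as a percentage of the Ptprc signal of the same tumour, 8 of the 9 genes overlapped the range of the controls at day 3, 8 at day 6, 6 at day 18 and 8 at day 27, and no gene was above the range of the controls in both tumours of a day or all 4 of day 27. Klrk1, for example, was 27.2% to 48.5% of Ptprc in the controls and 38.1% to 38.4% at day 3. Those that lay below were Klrc2 at day 3 (3.45% to 3.72%, against 3.74% to 8.62% in controls), Klrg1 at day 6 (2.86% to 4.07%, against 6.42% to 16.0%), and Klrc1, Klrc2 and Klrg1 at day 18. Klrg1 was also below at day 27, at 0.327% to 4.90%. For each of the 9 genes the top of the control range came from the second control of day 6, which had the lowest Ptprc signal of the controls (6.01). The overlap depends in part on that tumour. In the remaining controls Klrk1 reached at most 32.3%, below both tumours of day 3. Klrd1 was 35.6% to 60.5% in them, which still contained its day 3 values of 45.9% and 53.3%. These are descriptions with no test, and the share of all genes with such overlap was not computed.

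**Figure D3:**
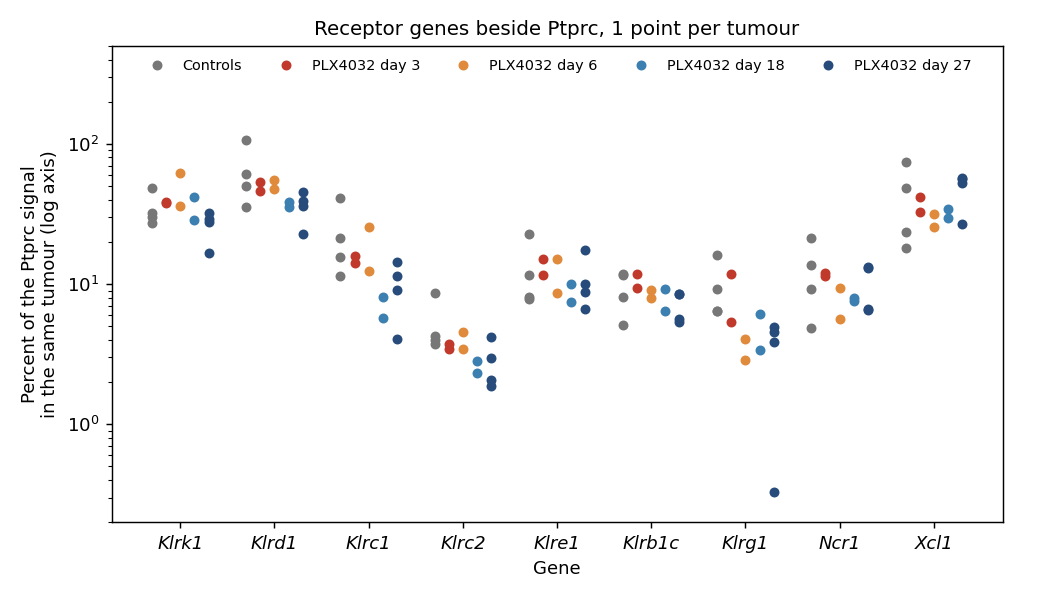
Signal of each of the 9 genes as a percentage of the Ptprc signal of the same tumour (log axis), 1 point per tumour, coloured by group. At day 3 both tumours of Klrc2 and 1 of Klrg1 (5.33%) lie below the range of the controls and 1 of Klrb1c just above it (11.8%, against up to 11.7%), while the other points of that day lie inside it. Klrg1 is below that range at days 6, 18 and 27. The top of the range is the second control of day 6 for each gene.

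T cell genes moved over the same days. Of 15 T cell markers, 14 rose at day 3 and 11 at day 6. Cd3e, a chain of the T cell receptor complex, was 1.05 to 3.35 in controls, 14.5 and 22.4 at day 3 and 8.12 and 27.1 at day 6. Cd8a was 1.29 to 2.21 in controls, 12.2 and 15.7 at day 3 and 10.1 and 50.6 at day 6. All 6 gamma-delta T cell markers rose at day 3, with summed signals of 1.78 to 6.14 in controls and 19.4 to 47.9 at day 3. Of 7 markers of innate lymphoid cells Il7r, Tnfsf10, Gata3 and Rora rose and Areg fell at day 3. Their sum, 220 to 604 in controls and 261 to 267 at day 3, was mostly the signal of Il1rl1, which was 199 to 571 in controls and 213 to 235 at day 3. Among 8 NK markers, 3 of which are among the 9, the sum was 25.5 to 37.4 in controls, 152 to 467 at day 3, 34.5 to 152 at day 6, 16.4 to 32.8 at day 18 and 12.5 to 17.1 at day 27. Of the 7 tested 6 rose at day 3, 2 at day 6 (Klrb1c and Klre1) and none at day 18, 2 were lower than the controls at day 27 (Gzma and Prf1), and 6 fell from early to late. At day 3 Itga2, which encodes the NK marker CD49b and is also made by other cells, did not pass (-0.19, SE 0.24, adjusted p = 0.537). How much of the signal of Klrk1, Klrd1, Klrc1, Klrg1 or Xcl1 came from T cells was not tested.

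The tumours of a day were unequal in all or nearly all of the 9 genes at once. At day 3 tumour 2 was higher than tumour 1 for 9 of 9, with ratios of 1.19 for Xcl1 to 1.99 for Klre1 in 8 of them and 3.33 for Klrg1, beside 1.52 for Ptprc. At day 6 tumour 2 was again higher for 9 of 9, and for 7 of them by more than Ptprc (2.45). The ratio was 5.09 for Klrc1, 4.30 for Klre1, 4.20 for Klrk1 and 4.07 for Ncr1. It was 2.14 for Klrb1c and 1.72 for Klrg1, and 5.04 for Cd8a and 3.33 for Cd3e. At day 18 tumour 1 was higher for 8 of 9, by 1.56 times for Xcl1 to 2.63 times for Klrk1, beside 1.81 for Ptprc, and Klrg1 was equal in both (1.80 and 1.82). With 1 tumour on each side these ratios have no replicate check. The share of all genes higher in the same tumour was not computed. Column totals differed in the same direction. For tumours 1 and 2 they were 960087 and 1037055 at day 3, 932813 and 978977 at day 6, and 1082576 and 998218 at day 18.

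**Figure D4:**
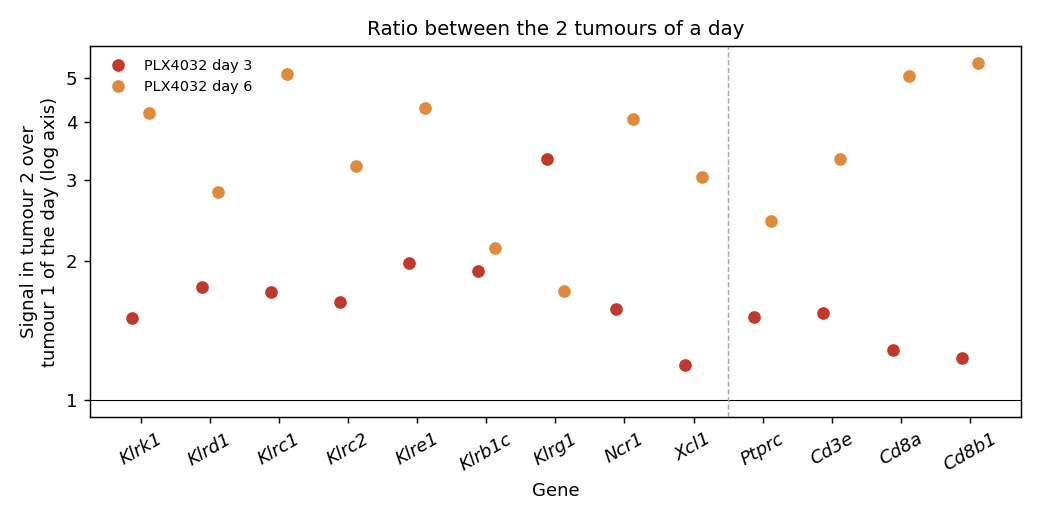
Ratio of the signal in tumour 2 to that in tumour 1 (log axis) for the 9 genes and, right of the dashed line, Ptprc, Cd3e, Cd8a and Cd8b1, at day 3 and day 6 of treatment. Klrg1 has the highest ratio of the 9 at day 3 and the lowest at day 6.

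Other receptors of NK cells moved largely with these genes. Of 35 names listed 27 were tested: 24 rose and 2 fell at day 3 (median difference 2.16), 14 rose at day 6 (median 1.41), Klra2 alone rose at day 18, none passed at day 27, and 23 fell and 1 rose from early to late. Klrb1b, an inhibitory relative of NK1.1, rose by 2.62 (SE 0.24, adjusted p = 3.79e-05) at day 3, and Klra7, an inhibitory receptor for classical MHC class I, by 3.21 (SE 0.42, adjusted p = 0.000279). Klra2, a member of the same family that is known from myeloid cells, rose by 3.31 (SE 0.41, adjusted p = 0.00022) at day 3 and by 1.79 (SE 0.41, adjusted p = 0.0266) at day 18. Slamf7, a receptor shared by NK cells and other leukocytes, rose by 3.87 (SE 0.52, adjusted p = 0.000353) at day 3.

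Klra4, which encodes an activating receptor of the same family and lies at chr6:130043731-130067271 (minus strand), went the other way. It was 51.7, 87.2, 54.8 and 68.4 in the controls and 20.5 and 20.5 at day 3, a fall of 1.60 (SE 0.21, adjusted p = 0.000278). At day 6 it was 47.9 and 63.2, at day 18 76.6 and 62.6, and at day 27 54.6 to 77.2, all overlapping the controls. Late tumours were higher than early ones by 0.96 (SE 0.16, adjusted p = 0.00131). Its level in controls, a mean of 65.5, was above that of each of the 9 genes and of Ptprc. Of the 31-base words of its transcript 17.5% occur in other genes, most of all in Klra1 (8.15%). Klra1 had a mean of 0.405 in controls and 4.33 at day 3. How much of the Klra4 signal belongs to relatives was not tested. Il18rap, a chain of the interleukin 18 receptor, was the other gene of the list that fell at day 3 (-0.52, SE 0.18, adjusted p = 0.0391), from a mean of 41.1 to 28.2.

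Most genes listed for adaptors and signalling proteins of the receptors also rose at day 3. Which cells in the bulk tumours this signal came from was not tested. Of 16 adaptor and proximal signalling genes 15 rose and 1, Ptpn11, fell at day 3 (median 2.35), 8 rose at day 6, and none passed at days 18 or 27. Tyrobp, the gene for the DAP12 adaptor that is also abundant in myeloid cells, rose by 2.65 (SE 0.41, adjusted p = 0.000637) at day 3, from a mean of 211 to 1260. Hcst, the gene for the DAP10 adaptor of NKG2D, rose by 2.71 (SE 0.57, adjusted p = 0.00301), from 3.49 to 17.5 in controls to 50.1 and 82.2. Zap70, the kinase downstream of several of these receptors, rose by 2.80 (SE 0.44, adjusted p = 0.000708) at day 3 and by 2.08 (SE 0.44, adjusted p = 0.0337) at day 6.

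Among ligands and partner genes of the receptors 11 were tested, and 6 rose and 1 fell at day 3 (median 0.95). Clec2i, a C-type lectin gene of the same complex, rose by 2.15 (SE 0.35, adjusted p = 0.000874). Among MHC class I genes, beside H2-T23, H2-K1 rose by 2.45 (SE 0.39, adjusted p = 0.000718) and H2-D1 by 1.96 (SE 0.31, adjusted p = 0.000685). These 3 also made up the 3 that rose at day 6. None of the 11 passed at days 18 or 27.

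Transcription factors and cytokines of NK cells showed 13 risers of 17 tested at day 3 (median 1.49) and 5 at day 6. Eomes, a T-box factor needed for mature NK cells, was 0.999 to 1.49 in controls and 4.49 and 5.75 at day 3 (1.49, SE 0.25, adjusted p = 0.000982). At day 6 it was 1.75 and 3.95, which did not pass (adjusted p = 0.0946). Tbx21, the gene for T-bet, was 0.465 to 0.908 in controls, 5.17 and 8.71 at day 3 (2.21, SE 0.37, adjusted p = 0.000894) and 2.03 and 7.75 at day 6 (1.63, SE 0.37, adjusted p = 0.0363). With every control under 1, Tbx21 met the filter on low values only through treated tumours. Il15, the cytokine that keeps NK cells alive, rose at day 3 by 1.43 (SE 0.39, adjusted p = 0.0116), from 7.20 to 12.9 in controls to 24.2 and 30.9.

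All 12 cytotoxic effector genes tested rose at day 3 (median 2.84), 7 at day 6, and 11 fell from early to late. Gzma, the gene for granzyme A, was 18.3 and 16.5 in the controls of day 3, 4.59 and 7.14 in those of day 6, and 80.5 and 312 at day 3 of treatment (3.84, SE 0.67, adjusted p = 0.00111). Prf1, the gene for perforin, was 8.60 to 10.3 in controls and 24.6 and 74.7 at day 3 (2.10, SE 0.52, adjusted p = 0.00737). Without the second tumour of day 3 the Prf1 difference was 1.32 and did not pass (adjusted p = 0.119). At day 27 these were the effector genes below the controls: Gzma was 0.625 to 1.49 (-2.38, SE 0.54, adjusted p = 0.0273) and Prf1 was 1.93 to 2.62 (-1.67, SE 0.42, adjusted p = 0.0428), with all 4 tumours under every control for each. Both calls were lost when the tumours of day 27 were averaged in pairs, in each of the 3 possible pairings (Gzma adjusted p = 0.167 to 0.182, Prf1 adjusted p = 0.218 to 0.231). They were also lost when any 1 tumour of day 27 was left out (Gzma adjusted p = 0.0605 to 0.0804, Prf1 adjusted p = 0.0784 to 0.0999).

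**Figure D5:**
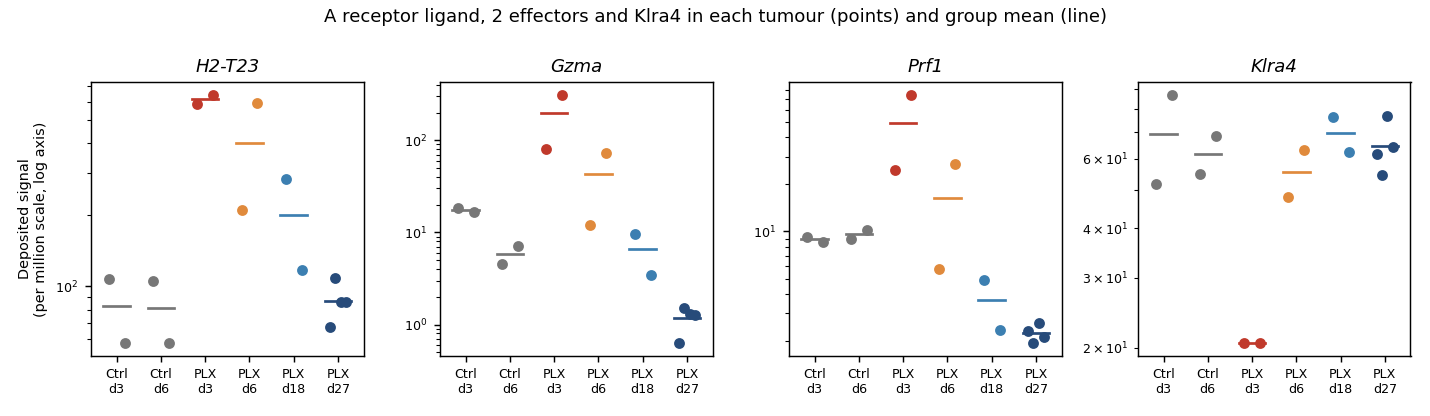
Deposited signal (log axis) of H2-T23, Gzma, Prf1 and Klra4 in each tumour, with control and PLX4032 groups by day on the x axis. Points are tumours and lines are group means. The group means of H2-T23, Gzma and Prf1 are highest at day 3, Klra4 is lowest there at 20.5 in both, and Gzma and Prf1 are below all controls at day 27.

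Across the 14 tumours the 9 genes varied together. The Pearson correlation of each gene with the mean of the other 8, on standardised log2 values, ran from 0.889 for Klrg1 to 0.989 for Klrd1. Genes outside the 9 were ranked by likeness to the mean of the 9. Predicted genes, Riken clones, pseudogenes and gene segments of T cell receptor and antibody loci were left out of this ranking. Of the remaining genes the 8 most alike were Il2rb (r = 0.997), Tbx21 (0.993), S1pr4 (0.992), Synj1 (0.992), Slamf1 (0.991), Cd28 (0.990), Cyfip2 (0.990) and Sh2d2a (0.988). Tbx21, S1pr4, Slamf1 and Cd28 met the filter on low values only through treated tumours. Il2rb encodes the beta chain of the receptors for interleukins 2 and 15. It was 11.9, 8.03, 14.4 and 6.14 in the controls, 67.1 and 124 at day 3, 24.9 and 74.4 at day 6, 23.7 and 12.8 at day 18 and 6.66 to 8.07 at day 27, which is the order of tumours seen for Klrd1 in the early groups. These correlations describe 14 tumours that share treatment groups, RNA of mixed cells and the same scaling, and they carry no test.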

How the data were processed

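Bulk RNA from 14 frozen tumours was measured, and the authors deposited 1 table with a signal per gene and tumour. Its name calls the values TPM, but 5 of 14 columns sum to more than 1000000, and the sources used here do not state how they were scaled. Per the submitters' processing notes, kallisto, sleuth and mm10 were used, with no versions. The genes and lists were chosen with earlier results of these data known. Symbols were matched without regard to case (96.4% of 18481).

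Columns give a tumour's group but not its animal. All groups entered 1 limma fit (3.58.1, R 4.3.3, variance trend, 8 residual degrees of freedom) on log2(signal + 1) of the 15841 genes at 1 or more in at least 2 tumours. Tests were 2-sided, adjusted by Benjamini-Hochberg over all genes tested, with a threshold of 0.05. The fit was tested on simulated data. The pseudocount understates changes of low genes. All 9 genes passed the filter, 8 on the control tumours alone. Outside the 9, Xcr1, Tbx21, Klri1, Klri2, Gata3, S1pr4, Slamf1 and Cd28 passed it only with treated tumours. The rest of the lists was not checked for this. Each treated group was set against the average of the control groups, so these comparisons share their controls.

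Named beside the 9 genes are Ptprc, Cd3e, set partner genes, up to 4 genes per list with the smallest p in a comparison, and the 8 most alike genes after the exclusions given above. Klri1, Klri2, Cdh1, Cdh2, Raet1d, Ulbp1, Klra4, Il18rap, Ptpn11, Itga2, Areg, Cd8a and Cd8b1 were added after their values were seen. Positions come from GENCODE M21 and promoters from RefSeq. Alternatives changed the pseudocount, filter, scaling, variance prior, controls, fitted groups and tumours.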

Additional observations from a re-analysis of the deposited data

Results flagged for a closer look

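In groups of 4 tumours a value was singled out when its gap to the nearest other tumour took up most of the range of the group (Dixon's criterion). Over 23 genes and 46 such groups 4 tumours met it, where chance gives about 1 in 20. They were the highest control of Ncr1 (3.37), the highest day 27 tumour of Ptprc (34.1), the lowest day 27 tumour of Cd8a (1.10) and the highest day 27 tumour of Clec2d (83.9).

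Late and early treated tumours differed, tested as late minus early on the log2(signal + 1) scale. The controls were of days 3 and 6 only, so treatment and time cannot be told apart in this difference. For the 9 genes the difference was -1.97 for Klrb1c, -2.67 for Klrc1, -1.63 for Klrc2, -2.46 for Klrd1, -2.10 for Klre1, -1.82 for Klrg1, -2.45 for Klrk1, -1.82 for Ncr1 and -1.76 for Xcl1. Among leukocyte genes it was -2.05 for Ptprc, -1.81 for Cd3e and -1.91 for Cd8a. Among partners and regulators it was -1.89 for H2-T23, -1.69 for Tyrobp, -1.69 for Hcst, -0.67 for Xcr1, -0.59 for Clec2d, -0.83 for Il15, -1.07 for Eomes and -1.72 for Tbx21. Gzma (-4.20) and Prf1 (-2.70) had the most negative values of the genes given here, and Klra4 the only positive one (0.96).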

How the results depend on the processing

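No paired analysis was possible because the column numbers only name tumours and are not tied to the animal numbers of the labels. The day 3 calls kept direction and side of the threshold in 135 of 135 combinations of gene and setting, and the late against early calls in 189 of 189. At day 6, 65 of the 105 combinations for the 7 genes called kept the call. The day 6 count of 7 was 4 with a pseudocount of 5, 0 with the compared groups fitted alone, 0 with the controls of the same day (8 of the 9 at an unadjusted limma p under 0.05 in both), and 0 to 8 when 1 tumour was left out. Ptprc and H2-T23 lost their day 6 calls in 5 of 15 settings each. None of the 9 passed at day 18 or 27 under any setting run, and small differences there changed sign. With quantile normalisation the day 18 difference was -0.023 for Klrc2 and -0.0368 for Klrg1, and the day 27 difference was 0.008 for Ncr1. Leaving out 1 tumour gave -0.65 to 0.33 for Klrc1 and -0.0905 to 0.48 for Klrc2 at day 18. At day 27 it gave -0.41 to 0.18 for Klrb1c, -0.0864 to 0.0937 for Klre1, -0.46 to 0.0901 for Klrk1 and -0.24 to 0.22 for Ncr1. The cause was not tested. Quantile normalisation moved the median of all genes at day 3 from 0.02 to -0.15. The median over the 9 genes of log2(gene + 1) minus log2(Ptprc + 1), day 3 minus controls, was -0.35, and -1.08 with a pseudocount of 5, chosen after seeing the data. It was -0.61 to -0.03 without 1 tumour, beside an SD of 0.68 between controls. A pseudocount lowers the differences of low genes more than that of Ptprc. In the plain ratio of day 3 to control means, Ptprc was at 8.02. Klre1, Klrb1c, Klrk1, Ncr1, Klrg1 and Xcl1 were above it, at 8.42 to 11.1. Klrd1, Klrc1 and Klrc2 were below it, at 6.71 to 7.71. Depth is unknown and limits the genes near 1, above all Klrc2.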
